A study of Mus musculus with 36 samples.

Results

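The liver transcription factors described here are 9 of the 24750 genes in a table of normalized counts from mouse adipose tissue: Onecut1, Onecut2, Hnf4a, Foxa1, Foxa2, Foxa3, Nr1h4, Nr1i2 and Nr1i3. They were taken by name, through the gene symbol of each Ensembl ID, with the row of highest mean where a symbol had several, and all 9 passed the filter on low values in the fits of 18 and of 36 mice below. RNA of epididymal adipose tissue (eWAT) was sequenced in bulk from 36 male C57BL/6 mice, 3 in each of 12 groups. WT mice and CCL19-KI mice, which carry Ccl19 knocked into the Adipoq locus so that the adipocyte gene Adipoq drives it, were fed ND (a normal diet) or a high-fat diet (HFD) labelled 40% or 60%, each with or without a ligature around a tooth, which induces periodontitis. Feeding lasted 8 weeks before the ligature and 10 weeks in all, the ligature was in place for 2 weeks, and 14 weeks is the age given for the start of the ligature period. The labels place the ligature in 6 of the 12 groups, whereas the design text can be read as ligature in all of them, and the labels were followed. Groups are named by genotype and diet, with "ligature" added where it applies, as in WT 40% HFD ligature.

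Each library held 11962228 to 21581595 reads (median 15573273), so that 1 read equals 0.0472 to 0.0834 normalized CPM (counts scaled to library size), the unit of every level below. The labelled tissue was checked with 7 adipocyte markers (Adipoq, Plin1, Lep, Cidec, Fabp4, Lipe, Retn), of which 7 of 7 were detected in every library. Their summed level ran from 4182 in WT 40% HFD replicate 1 to 23933 in WT 40% HFD ligature replicate 3, and Fabp4, the most abundant of them, ran from 2009 to 10911.

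As background, these factors are known from the liver, where they bind each other's genes and together hold hepatocytes in their differentiated state. Onecut1, also called HNF6, and its relative Onecut2 carry a cut domain and a homeodomain and act in the development of liver, bile ducts and pancreas. Hnf4a is a nuclear receptor that most hepatocyte genes depend on, and the Foxa proteins are pioneer factors that open chromatin at liver enhancers. Nr1h4 is the bile acid receptor FXR, Nr1i2 is the xenobiotic receptor PXR, and Nr1i3 is the related receptor CAR. Albumin (Alb) is the most abundant secreted protein of hepatocytes and serves below as the gene that the factors are compared with. White fat is not known as a site where most of these factors are made, so their level in eWAT is given beside hepatocyte markers throughout.

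Hepatocyte markers were read in every library before the factors. The list has 16 genes, among them Alb, Apoa1, Apoa2, Apoc3, Ttr, Fgb, Cyp2e1, Tat, G6pc and Hrg, and 12 to 16 of them were detected in a library. Their summed level in replicates 1 to 3 was 131, 1119 and 1541 in WT ND, and 1208, 31483 and 36864 in CCL19-KI ND. On 40% HFD it was 39013, 10911 and 40324 in WT, and 8669, 43801 and 26640 in CCL19-KI. On 60% HFD it was 11523, 34050 and 47886 in WT, and 991, 1720 and 1392 in CCL19-KI. Mice of a group thus differed by up to an order of magnitude or more, and WT ND and CCL19-KI 60% HFD were the low groups without ligature. With ligature the sum was 15113, 15646 and 4494 in WT ND, and 10072, 1752 and 2707 in CCL19-KI ND. It was 10181, 1881 and 29161 in WT 40% HFD ligature, and 10382, 46920 and 4981 in CCL19-KI 40% HFD ligature. It was 19100, 14083 and 42432 in WT 60% HFD ligature, and 24205, 20817 and 3210 in CCL19-KI 60% HFD ligature. The most abundant gene was Cyp2e1, which adipose tissue also expresses, in all mice of WT ND and WT ND ligature, CCL19-KI ND replicate 1, CCL19-KI ND ligature replicates 2 and 3, WT 40% HFD ligature replicate 2, CCL19-KI 40% HFD ligature replicate 3 and CCL19-KI 60% HFD replicate 3, and Alb in the other libraries.

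Alb alone spanned 5.55 to 26901 normalized CPM and set 6 libraries apart. All 3 WT ND mice (5.55, 7.85 and 13.4), CCL19-KI ND ligature replicates 2 and 3 (7.67 and 9.31) and CCL19-KI 60% HFD replicate 3 (6.38) had under 1000 Alb reads, and the other 30 libraries had at least 4223. Without Cyp2e1, the other 15 hepatocyte markers summed to between 10.6 (WT ND replicate 2) and 18.4 (CCL19-KI ND ligature replicate 3) in those 6 libraries. Fgb and Hrg were at 0 in WT ND replicate 1, Hrg and Serpina1c in replicate 2, and Apoc3, Hrg and Ttr were among the markers at 0 in replicate 3. Hrg and Mup3 were at 0 in CCL19-KI ND ligature replicate 2, G6pc and Hrg in replicate 3, and G6pc in CCL19-KI 60% HFD replicate 3. In bulk samples fewer cells of a type and less RNA per cell cannot be told apart. Some results that rest on these 6 libraries are given with and without them. That exclusion was chosen after seeing the data and is tied to the outcome, since Alb moved with the factors. The genotype contrast on ND without ligature, and the differences of contrasts that include WT ND, were not fitted without them.

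The factor the others are grouped around here, Onecut1 (ENSMUSG00000043013), lies on chromosome 9 of the mouse genome. Its promoter is shown with those of Hnf4a and Foxa2, because Onecut1 is known to act on both genes in the developing liver. Of the 9 factors 8 matched an entry in a RefSeq promoter table (build GRCm38.p6, 250 bases before to 50 after a start site), and with Alb they gave 12 promoters. The letters reported here, searched on both strands, were ATCAAT and ATCGAT (Onecut), TGTTTAC and TATTTAC (Foxa), CAAAGTCCA (Hnf4a) and AGGTCA (the hexamer of nuclear receptors), none of which is contained in another. Among 32851 promoters of that length, 7.54% held ATCAAT, 0.925% ATCGAT, 3.65% TGTTTAC, 3.04% TATTTAC, 0.475% CAAAGTCCA and 16.3% AGGTCA. The sequences below run 5′ to 3′ along the gene, with each match in capitals. They lie at chr9:74861671-74861970 (Onecut1, plus strand), chr2:163506607-163506906 (the upstream of 2 Hnf4a promoters, plus strand) and chr2:148046920-148047219 (1 of 3 Foxa2 promoters, minus strand).
Onecut1: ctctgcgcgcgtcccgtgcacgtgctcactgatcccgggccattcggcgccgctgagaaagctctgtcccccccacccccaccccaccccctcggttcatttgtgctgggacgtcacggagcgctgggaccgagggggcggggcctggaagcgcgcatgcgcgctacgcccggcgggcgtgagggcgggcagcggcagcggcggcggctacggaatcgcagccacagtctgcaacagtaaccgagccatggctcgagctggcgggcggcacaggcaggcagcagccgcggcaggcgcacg
Hnf4a: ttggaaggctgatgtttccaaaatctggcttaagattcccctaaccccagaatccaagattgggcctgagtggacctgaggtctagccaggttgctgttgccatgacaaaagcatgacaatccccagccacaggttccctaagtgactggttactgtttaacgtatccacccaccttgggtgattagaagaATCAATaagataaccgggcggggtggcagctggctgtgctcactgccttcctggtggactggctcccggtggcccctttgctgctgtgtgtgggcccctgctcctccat
Foxa2: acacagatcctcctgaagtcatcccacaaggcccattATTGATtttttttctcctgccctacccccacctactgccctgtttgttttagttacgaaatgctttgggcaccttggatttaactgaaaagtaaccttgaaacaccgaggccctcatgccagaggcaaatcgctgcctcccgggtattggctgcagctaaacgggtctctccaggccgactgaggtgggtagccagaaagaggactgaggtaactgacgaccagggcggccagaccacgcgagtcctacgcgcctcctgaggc
The Onecut1 window held none of these letters. None was held by the other Hnf4a promoter or the other 2 Foxa2 promoters either. The Hnf4a window shown held ATCAAT at position -59 from the start site on the strand shown, and the Foxa2 window shown held the same letters at -213 on the strand opposite to the one shown, so that their reverse complement is in capitals. Of the promoters not shown, that of Foxa1 held TGTTTAC at -141, that of Nr1h4 AGGTCA at -214 and that of Nr1i2 TATTTAC at -78, and those of Foxa3 and Nr1i3 held no match. A match describes the letters and does not show binding.

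Onecut1 ranged from 0 to 97.4 normalized CPM over the 36 libraries, with a median of 2.27 and 7 libraries at 0. In WT it was 0, 0 and 0 on ND, 17.6, 2.06 and 28.5 on 40% HFD, and 2.35, 7.42 and 28.8 on 60% HFD. In CCL19-KI it was 1.51, 41.8 and 44.6 on ND, 26.9, 97.4 and 19.4 on 40% HFD, and 0.909, 1.37 and 0 on 60% HFD. Without ligature, the mean of CCL19-KI was above that of WT on ND and below it on 60% HFD, and the 40% HFD groups overlapped. With ligature, WT mice had 1.31, 1.87 and 0 on ND, 2.20, 0.253 and 6.98 on 40% HFD, and 22.8, 54.7 and 17.1 on 60% HFD. CCL19-KI ligature mice had 0.847, 0 and 0 on ND, 7.52, 52.8 and 0.950 on 40% HFD, and 18.7, 18.4 and 0.745 on 60% HFD. The genotypes overlapped in each diet with ligature. A count of 0 allows up to 3 reads, 0.150 to 0.167 normalized CPM in the WT ND libraries, and such limits and the intervals below cover counting error alone.

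By group mean, Onecut1 was ordered CCL19-KI 40% HFD (47.9 ± 43.1, SD, n = 3), WT 60% HFD ligature (31.5 ± 20.2), CCL19-KI ND (29.3 ± 24.1), CCL19-KI 40% HFD ligature (20.4 ± 28.2), WT 40% HFD (16.0 ± 13.3) and WT 60% HFD (12.9 ± 14.0). Then came CCL19-KI 60% HFD ligature (12.6 ± 10.3), WT 40% HFD ligature (3.14 ± 3.46), WT ND ligature (1.06 ± 0.96), CCL19-KI 60% HFD (0.760 ± 0.697), CCL19-KI ND ligature (0.282 ± 0.489) and WT ND (0). Of the 11 pairs of neighbours in this order 0 had ranges that did not overlap. Exons of Onecut1 share 2171 bases with Gm20649 on the same strand, which reached at most 1.97 normalized CPM, so reads in those bases could belong to either gene.

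Onecut2 (ENSMUSG00000045991) had at least as many reads as Onecut1 in every library. It ranged from 0 to 201 normalized CPM (median 27.3), with 1 library at 0. It was 0, 0.334 and 0.300 in WT ND and 3.68, 90.8 and 122 in CCL19-KI ND. It was 31.3, 83.9 and 146 in WT 60% HFD and 3.30, 5.48 and 0.491 in CCL19-KI 60% HFD. As with Onecut1, the mean of CCL19-KI was above that of WT on ND (72.2 against 0.211) and below it on 60% HFD (3.09 against 86.9). The lowest group, WT ND, was the only one whose range lay apart from its neighbour's in the order of the 12 group means.

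Hnf4a (ENSMUSG00000017950) had the widest range in normalized CPM of the 9 factors, 0.05 to 1395 (median 111), and was never at 0. It was 0.163, 0.946 and 0.05 in WT ND, which are 3, 17 and 1 reads, and 9.44, 642 and 681 in CCL19-KI ND. It was 1395, 132 and 464 in WT 40% HFD and 74.5, 525 and 266 in CCL19-KI 40% HFD. It was 118, 370 and 595 in WT 60% HFD and 9.77, 17.7 and 0.196 in CCL19-KI 60% HFD. The highest value, in WT 40% HFD replicate 1, was also the highest library of Onecut2, Foxa1, Foxa3, Nr1h4, Nr1i2 and Nr1i3, and that library had the lowest adipocyte sum of the 36. Per kilobase of exon, the scale on which genes can be compared, Hnf4a was the highest of the 9 factors in 26 libraries, Nr1h4 in 9 and Foxa1 in 1. The medians per kilobase were 23.0 for Hnf4a, 8.5 for Nr1h4, 5.81 for Nr1i3, 3.82 for Nr1i2, 3.23 for Foxa3, 1.68 for Onecut2, 0.988 for Foxa2, 0.671 for Foxa1 and 0.552 for Onecut1.

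Of the Foxa factors, Foxa3 (ENSMUSG00000040891) was the most abundant per kilobase. It ranged from 0 to 85.9 normalized CPM (median 6.58), Foxa2 (ENSMUSG00000037025) from 0 to 21.3 (median 2.34) and Foxa1 (ENSMUSG00000035451) from 0 to 18.6 (median 2.23). Foxa2 was at 0 in 6 libraries, all 3 WT ND mice included, and Foxa3 in 3. Foxa1 was at 0 in 1 library, CCL19-KI ND replicate 1. In the 6 libraries with few Alb reads it read 0.217, 1.95 and 0.150 in WT ND, 1.78 and 0.858 in CCL19-KI ND ligature replicates 2 and 3, and 3.48 in CCL19-KI 60% HFD replicate 3, where Hnf4a read 0.196. WT ND replicate 2 and CCL19-KI 60% HFD replicate 3 also had the highest sums of 9 epididymis markers, 7389 and 12724, and the part of those markers in the Foxa1 values was not tested.

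Among the receptors, Nr1h4 (ENSMUSG00000047638) was the one factor with reads well above 0 in each of the 36 libraries, from 1.03 to 171 normalized CPM (median 19.6). It was 2.39, 2.17 and 2.55 in WT ND and 6.09, 66.6 and 106 in CCL19-KI ND. In CCL19-KI ND ligature replicates 2 and 3, with 7.67 and 9.31 of Alb, Nr1h4 still read 8.53 and 6.80. Nr1i2 (ENSMUSG00000022809) ranged from 0 to 93.1 (median 9.76, 2 libraries at 0) and Nr1i3 (ENSMUSG00000005677) from 0 to 187 (median 25.6, 3 libraries at 0). Nr1i3 was 0, 0.0557 and 0 in WT ND and 1.75, 38.5 and 127 in CCL19-KI ND. Exons of Nr1i3 share 3304 bases with Tomm40l on the opposite strand, which reached at most 34.4 normalized CPM, and whether counting used the strand is not stated, so some of these reads are uncertain.

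**Figure D1:**
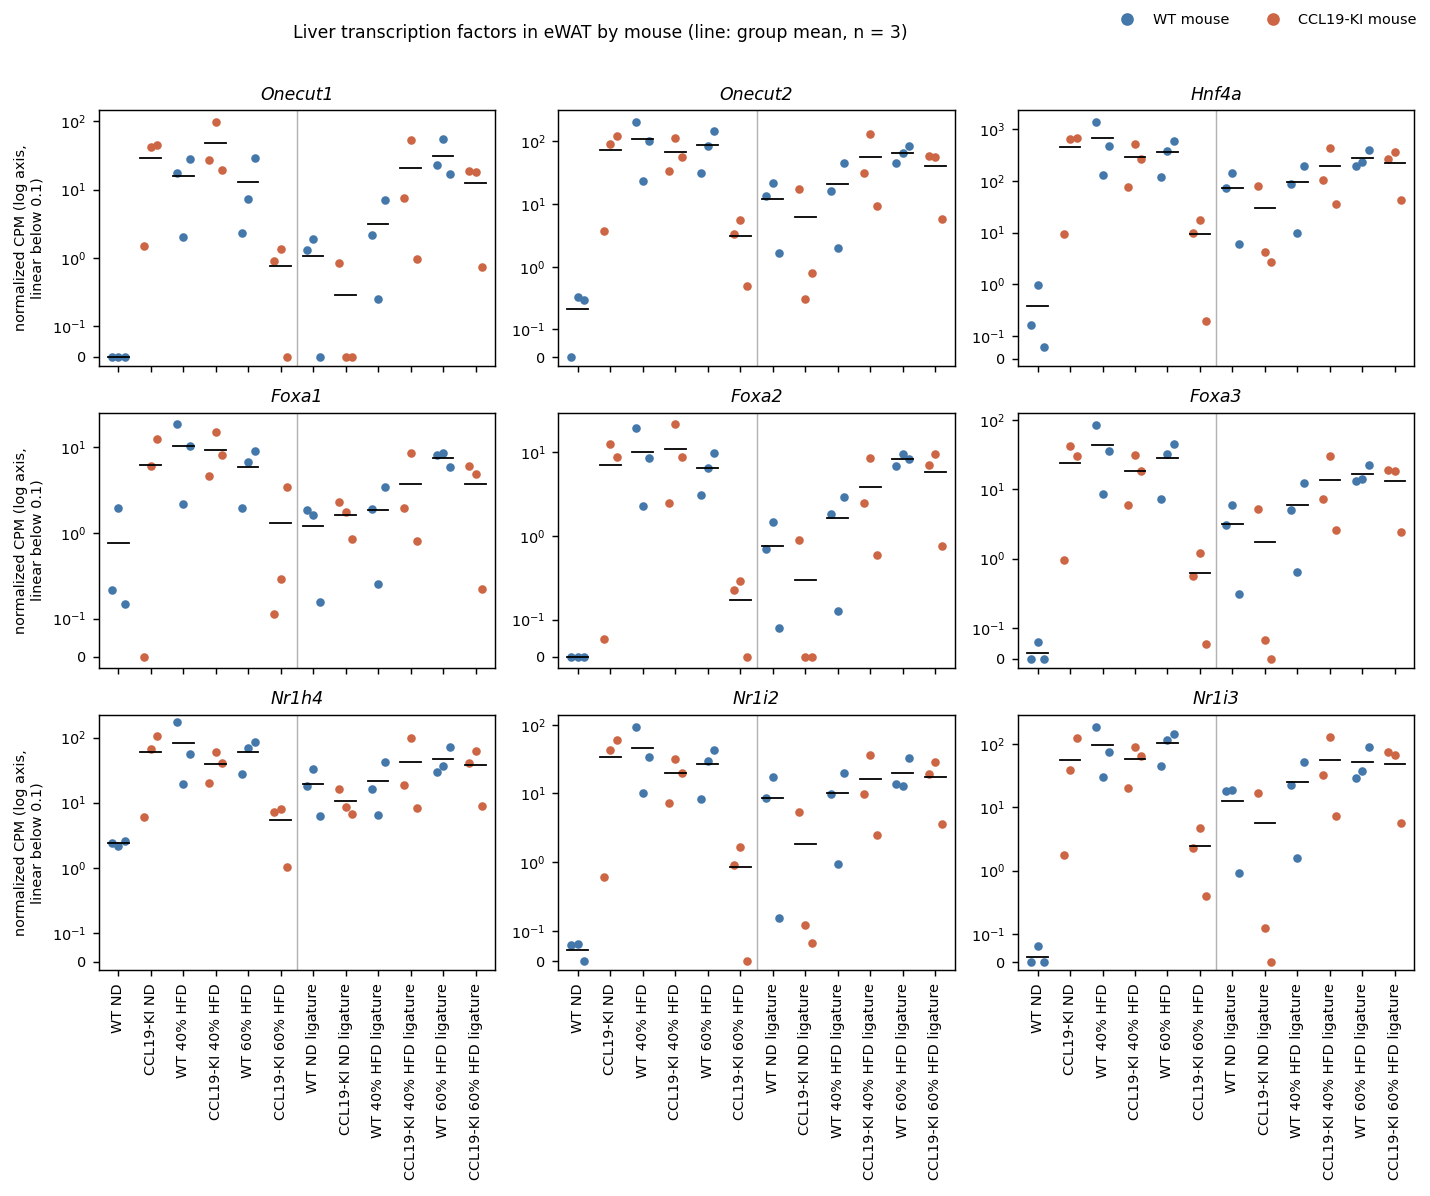
Normalized CPM of the 9 liver transcription factors in each mouse (points, log axis that is linear below 0.1), by group, with group means as lines (n = 3); groups without ligature stand left of the grey line. WT ND is the lowest group for all 9 factors, and Onecut1 is at 0 in all 3 of its mice.

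The fits with limma compared log2(normalized CPM + 1), which understates fold changes of low genes, and called a gene at an adjusted p below 0.05 over all genes tested. They first asked whether CCL19-KI differs from WT on ND without ligature. Here 7 of 9 factors were called, all higher in CCL19-KI, against 7.28% of all 16923 genes, and the median log2 fold change was 3.97 over the 9 factors and -0.09 over all genes. With the study's cutoffs (unadjusted p up to 0.05 with a fold difference of 1.5 upward or 0.67 downward) applied to the p and fold change of limma, 8 of 9 passed against 20.7% of all genes. The study took its p from edgeR, by a test it does not name, so the cutoffs were also applied to edgeR here, after the data were seen. With the quasi-likelihood test 8 of 9 factors passed against 23.6% of genes. The exact test of edgeR on just these 6 mice left out Foxa2, Foxa3 and Nr1i2, by a filter that depends on the change itself, so its count is not used. Hnf4a rose by a log2 fold change of 6.96 (SE 1.45, adjusted p = 0.0240), Onecut2 by 4.97 and Nr1i3 by 4.56. Onecut1 rose by 4.09 (SE 1.10, adjusted p = 0.0412), Nr1i2 by 3.97, Foxa3 by 3.74 and Nr1h4 by 3.46. Foxa2 (2.36, adjusted p = 0.103) and Foxa1 (1.51, adjusted p = 0.302) were not called.

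Since WT ND had few or no reads of several factors, bounds on ratios were taken from counts. The mean of CCL19-KI ND was at least 176-fold higher in Onecut1 and at least 42.1-fold higher in Foxa2 than 3 reads in each WT ND library. Where WT ND had reads, the ratio is that of pooled reads, each divided by pooled depth. With 1 read of Foxa3 in the 3 WT ND libraries it was 1287 (95% counting interval 231 to 50860). With 2 reads of Nr1i2 it was 904 (250 to 7469), and with 1 read of Nr1i3 it was 2894 (519 to 114328). With Onecut1 and Foxa2 at their bounds in place of the fitted values, the median log2 fold change of the 9 factors was 4.56. That median mixes bounds on group means, without a pseudocount, with fitted values of the other factors, so it is not on 1 scale. These counts describe the 6 mice sequenced and leave out the spread between mice, of which CCL19-KI ND replicate 1 is an example, with 1.51 of Onecut1 against 41.8 and 44.6 in the others.

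The count of 7 depended on single mice. It was 0 without WT ND replicate 1, without WT ND replicate 3, without CCL19-KI ND replicate 2 or without CCL19-KI ND replicate 3, 2 without WT ND replicate 2, and 9 without CCL19-KI ND replicate 1. It was 0 of the 6 factors tested when just these 6 mice were fitted (the filter left out Foxa2, Foxa3 and Nr1i2), 1 with a pseudocount of 5 and 3 with no filter on low values, and edgeR on whole reads called 8. Over all genes, of which 1232 were called, limma called 8, 817 and 37 without WT ND replicates 1, 2 and 3, and 3355, 5 and 9 without CCL19-KI ND replicates 1, 2 and 3. It called 0 of 15225 genes when just these 6 mice were fitted, 841 with a pseudocount of 5 and 926 of 24749 with no filter, and edgeR called 1522. All 3 WT ND mice are among the 6 libraries with under 1000 Alb reads, so the comparison cannot be made without them. Of 16 hepatocyte markers 15 rose here (median log2 fold change 7.84) and of 7 adipocyte markers 3 fell (median -1.63), and their part in the result was not tested. Adipoq, 1 of the 3 (-2.04), is the locus of the knock-in, and the part of the insertion in its change was not tested. It had -1.75 averaged over the 6 combinations of diet and ligature (called by limma).

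On 60% HFD without ligature the same contrast pointed the other way. Here 3 of 9 factors were called, all lower in CCL19-KI, against 4.06% of 16923 genes, with medians of -3.76 over the factors and 0.03 over all genes, and 8 of 9 met the study's cutoffs applied to limma against 19.9% of genes. Applied to edgeR, they were met by 8 of 9 factors and 24.2% of genes with the quasi-likelihood test. The exact test is not used here either, since Foxa2, below 1 in all 3 CCL19-KI mice, passed the filter through WT alone. Hnf4a had a log2 fold change of -5.58 (SE 1.45, adjusted p = 0.0475), Nr1i3 of -4.97 (adjusted p = 0.0419) and Onecut2 of -4.41 (adjusted p = 0.0426). Foxa3 had -3.92 (adjusted p = 0.0501) and Onecut1 -2.51 (SE 1.10, adjusted p = 0.175), and neither was called. The count of 3 became 0 without WT 60% HFD replicate 1, 2 or 3 and without CCL19-KI 60% HFD replicate 1 or 3. It was 0 with a pseudocount of 5 or no filter, 0 without the 6 libraries with under 1000 Alb reads, 5 by edgeR, 5 after quantile normalization, 6 with a pseudocount of 0.1, and 7 in a fit of all 36 mice. It was also 7 in a fit of just these 6, whose filter likewise kept Foxa2 through WT alone. Over all genes, of which 687 were called, limma called 16, 0 and 0 without WT 60% HFD replicates 1, 2 and 3, and 49, 1127 and 267 without CCL19-KI 60% HFD replicates 1, 2 and 3. It called 28 genes with a pseudocount of 5, 61 of 24749 with no filter, 755 after quantile normalization, 1082 with a pseudocount of 0.1, 2998 with all 36 mice and 964 of 15262 with just these 6, and edgeR called 1293. Without the 6 libraries with under 1000 Alb reads, which leaves 2 CCL19-KI mice here, limma called 421 of 16303 genes. At an unadjusted p below 0.05 by limma there were 8 of 9 factors, against 4543 of the 16303 genes. The median over the 9 factors was -3.37. Of 16 hepatocyte markers 13 fell (median -5.93). Of 7 adipocyte markers limma called 0, with 1 at an unadjusted p below 0.05 (median -0.77), and Adipoq had -2.03 (adjusted p = 0.0600), with 300, 417 and 1095 in CCL19-KI against 2354, 2076 and 1931 in WT. The 9 epididymis markers, with Crisp1 the most abundant over the series, summed to 345, 6520 and 12724 in CCL19-KI 60% HFD and to 0.201, 0.167 and 0.154 in WT 60% HFD, where Crisp1 was at 0 in all 3 mice. The part of these lists in the result was not tested.

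Whether the genotype contrast differed between ND and 60% HFD without ligature was tested directly, after the opposite signs were seen. The difference was called for 8 of 9 factors, all but Foxa1, against 8.61% of genes, and was 12.54 for Hnf4a (SE 2.05, adjusted p = 0.00311), 9.53 for Nr1i3, 9.38 for Onecut2 and 6.6 for Onecut1 (SE 1.56, adjusted p = 0.0202) on the log2 scale. The count stayed between 6 and 9 when each of the 12 mice was left out in turn, where 561 to 2850 genes were called in place of 1457, and edgeR called 8 factors and 2605 genes. The same difference was called for 15 of 16 hepatocyte markers (median 13.74), and their part in the result was not tested.

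On 40% HFD without ligature limma called 0 of 9 factors, as it did 0% of genes, with 0 factors (723 genes) at an unadjusted p below 0.05, 0 by edgeR and 0 by the study's cutoffs applied to limma, which 2.19% of genes met. Applied to edgeR, these passed 0 factors with either test (3.57% and 4.89% of genes). The median was -0.59 over the factors and -0.07 over all genes. Onecut1 had the largest difference of the 9 in the direction of CCL19-KI, 1.69 with a 95% interval of -0.66 to 4.04, while Hnf4a had -1.01 (-4.11 to 2.09).

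With ligature, limma called 0 of 9 factors in each diet. On ND this stood against 2.22% of 16653 genes (study's cutoffs applied to limma 9.19%), on 40% HFD against 0.0420% (1.56%) and on 60% HFD against 0.0781% (2.10%). The counts at an unadjusted p below 0.05, by edgeR and by the study's cutoffs applied to limma were also 0 for the factors in all 3 diets. Applied to edgeR, the cutoffs passed 0 of 9 factors in each diet with the quasi-likelihood test and on either HFD with the exact test, and on ND 0 of the 7 that the exact test covered, without Onecut1 and Foxa2. This stood against 10.2%, 2.64% and 2.70% of genes on ND, 40% HFD and 60% HFD with the quasi-likelihood test and 8.74%, 1.84% and 3.43% with the exact test. The medians over the factors were -0.83 on ND, 0.94 on 40% HFD and -0.71 on 60% HFD, where all genes had -0.03, 0.01 and -0.00. Of 16 hepatocyte markers 0 were called in each diet with ligature, 10 of them with an unadjusted p below 0.05 on ND and 0 on either HFD. The 6 libraries with under 1000 Alb reads include 2 of CCL19-KI ND ligature. Without them 1 mouse of that group is left, limma called 0 of 9 factors and 245 of 16190 genes on ND, and the median over the factors was 0.67 in place of -0.83, so its sign changed.

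Onecut1 in the ligatured mice on 40% HFD had a log2 fold change of 1.60 (SE 1.10, 95% interval -0.75 to 3.95, adjusted p = 0.981), with 7.52, 52.8 and 0.950 in CCL19-KI against 2.20, 0.253 and 6.98 in WT. By edgeR it had 2.70 (unadjusted p = 0.0761, adjusted p = 0.882) with the quasi-likelihood test. With the exact test of edgeR it had 2.72 (unadjusted p = 0.0709, not called after adjustment). It met the study's cutoffs, which use the unadjusted p, in neither. An exact two-sided permutation test gave p = 0.4 for its level and p = 0.2 for its ratio to Alb, where 3 mice against 3 can give no p below 0.1. The fold change was 0.36 without CCL19-KI 40% HFD ligature replicate 2, 0.93 without WT 40% HFD ligature replicate 2 and 2.75 without CCL19-KI 40% HFD ligature replicate 3. The genotype effect on 40% HFD minus that on ND was called for 0 of 9 factors (0.474% of genes; unadjusted count 0) and that on 40% HFD minus that on 60% HFD for 0 of 9 (0% of genes). For the latter, Onecut1 had 3.33 (95% interval 0.00 to 6.65, adjusted p = 0.944 by limma), and edgeR called 0 in both.

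**Figure D2:**
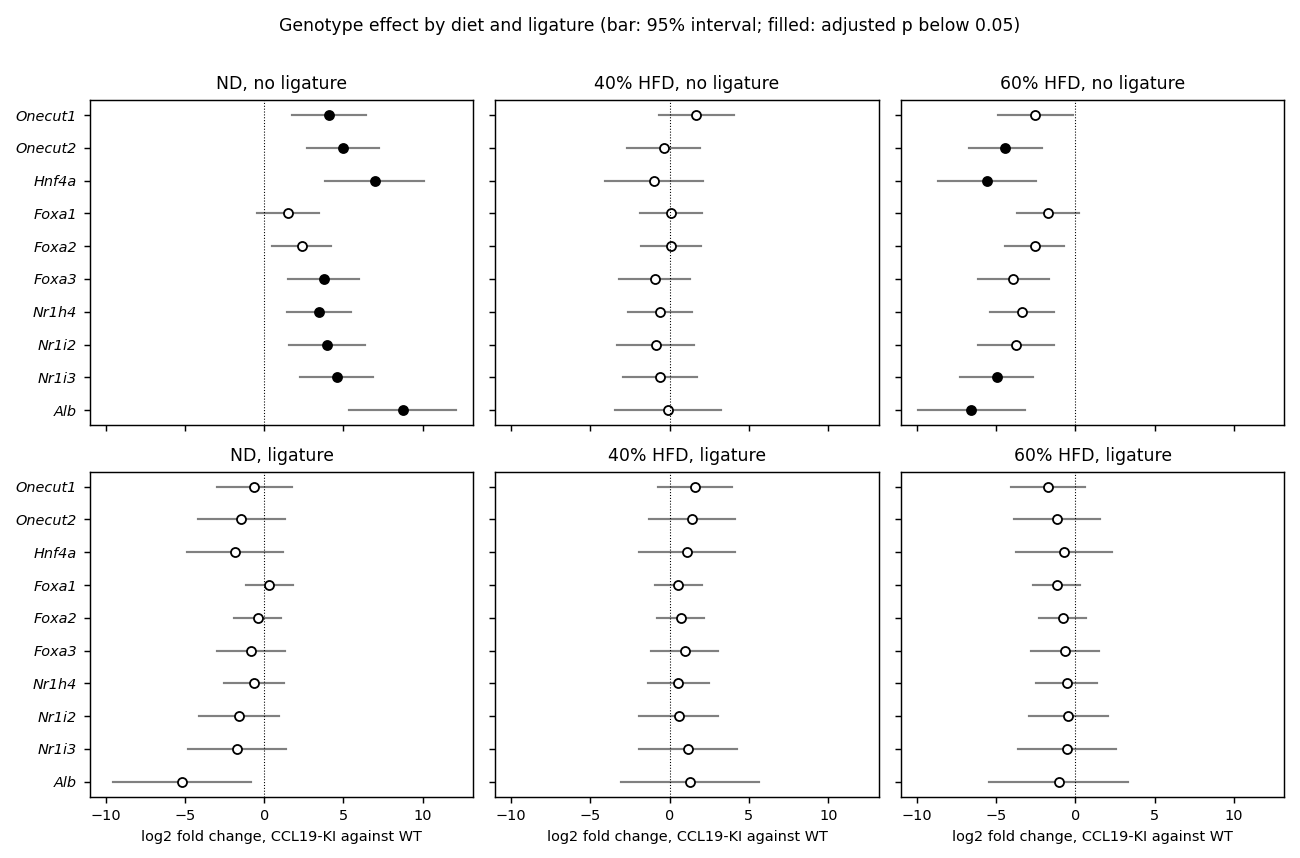
Log2 fold change of CCL19-KI against WT (points) with 95% intervals (bars) for the 9 factors and Alb, in 3 diets without ligature (top) and with it (bottom), 3 mice a group; filled points passed an adjusted p below 0.05. Filled points lie right of 0 on ND and left of 0 on 60% HFD without ligature, and there are none in the other 4 panels.

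Whether the genotype contrast differed with ligature was tested in the fit of all 36 mice, added after the values were seen. On ND the contrast without ligature minus that with it was called for 4 of 9 factors against 7.59% of genes, Hnf4a (8.79), Onecut2 (6.40), Nr1i3 (6.30) and Nr1i2 (5.55), while Onecut1 had 4.70 (adjusted p = 0.0702). That count was 0 without WT ND ligature replicate 2, CCL19-KI ND replicate 2 or CCL19-KI ND replicate 3, and 1 without WT ND ligature replicate 1, CCL19-KI ND ligature replicate 2 or CCL19-KI ND ligature replicate 3. It was 2 without WT ND replicate 1, 2 or 3, 8 without CCL19-KI ND replicate 1, and 8 by edgeR. In place of 1355 of all genes limma called 463, 476 and 449 in the first 3 of these fits, 514, 556 and 797 in the next 3, 1156, 954 and 1259 without each WT ND mouse and 3260 without CCL19-KI ND replicate 1, and edgeR called 2153. The difference was also called for 15 of 16 hepatocyte markers (median 11.71), for 7 of 9 exocrine pancreas markers (median 3.44) and, with negative sign, for 3 of 4 neuron markers (median -4.00), and their part in the result was not tested. On 60% HFD the same difference was called by limma for 0 of 9 factors, against 0.0112% of genes, and for 0 by edgeR. By limma 4 factors had an unadjusted p below 0.05, a threshold to which the share of 0.0112% does not apply. The share of all genes at that threshold is not given here, so this count is not read as a result about the factors. Averaged over the 6 combinations of diet and ligature, the genotype was called by limma for 0 of 9 factors against 0.459% of genes, with 0 at an unadjusted p below 0.05 and 0 by edgeR, and Onecut1 had 0.42 (95% interval -0.54 to 1.38).

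The ligature itself, averaged over genotype and diet, was called by limma for 0 of 9 factors against 0.325% of 17852 genes, with 0 at an unadjusted p below 0.05, 0 by edgeR and 0 by the study's cutoffs applied to limma. Onecut1 had -0.46 (95% interval -1.42 to 0.50) and Hnf4a 0.29 (-0.96 to 1.55), and 0 of 16 hepatocyte markers were called.

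Diet gave calls when averaged over genotype and ligature. For 40% HFD against ND, 7 of 9 factors were higher against 9.21% of genes called, with medians of 2.05 over the factors and -0.02 over all genes. Onecut1 rose by 2.12 (SE 0.57, adjusted p = 0.0233), Onecut2 by 2.64, Hnf4a by 3.14 (SE 0.75, adjusted p = 0.0123) and Nr1i3 by 2.90, and Foxa3, Nr1i2 and Foxa2 by 2.05, 2.00 and 1.5. Nr1h4 (1.37, adjusted p = 0.0669) and Foxa1 (1.09, adjusted p = 0.0965) were not called. The count was 4 without WT 40% HFD ligature replicate 3, CCL19-KI 40% HFD replicate 2 or CCL19-KI 40% HFD ligature replicate 2, and 3 with a pseudocount of 5, where limma called 845, 864, 952 and 1404 of all genes in place of 1645. For 60% HFD against ND, which shares the ND mice, 6 of 9 were higher against 18.6% of genes, with medians of 1.57 and 0.01. Those 6 were Hnf4a (2.37), Nr1i3 (2.36), Onecut2 (2.06), Onecut1 (1.66, adjusted p = 0.0440), Foxa3 (1.57) and Foxa2 (1.3). That count was 2 without CCL19-KI ND ligature replicate 2, WT 60% HFD replicate 3 or CCL19-KI 60% HFD ligature replicate 1 or 2, 3 without WT ND ligature replicate 3, CCL19-KI ND ligature replicate 3 or CCL19-KI 60% HFD replicate 2, and 2 with a pseudocount of 5. In place of 3315 of all genes limma called 2429, 2650, 2412 and 2880 in the first 4 of these fits, 3277, 2459 and 3164 in the next 3, and 3013 with the pseudocount of 5. CCL19-KI without ligature went against this average: mean Hnf4a was 444 on ND and 9.24 on 60% HFD, and mean Onecut1 29.3 and 0.760. Means of both factors were higher on 60% HFD than on ND in the other combinations of genotype and ligature. Of 16 hepatocyte markers 14 rose on 40% HFD (median 3.72) and 13 on 60% HFD (median 2.83), and their part in the result was not tested.

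Any difference among the 12 groups, by limma's F test, was called for 8 of 9 factors, all but Foxa1 (adjusted p = 0.0933), against 24.1% of genes, with Hnf4a at an adjusted p of 0.00385 and Onecut1 at 0.00771. The count was 8 or 9 when each of the 36 mice was left out in turn, where 2761 to 5917 genes were called in place of 4308. Without the 6 libraries with under 1000 Alb reads, limma called 0 of 9 factors among the 12 groups less WT ND, while it called 2329 of 17097 genes. It then also called 0 of 9 for 40% HFD against ND and 0 of 9 for 60% HFD against ND, averaged over the 3 combinations that kept ND mice (1 of them with 1 ND mouse), while it called 1431 and 2007 genes. Their median log2 fold change there was 0.51 and 0.11. Leaving out those 6 takes away all WT ND mice by a level that moved with the factors, so these counts do not tell what the calls rest on.

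The level of each factor relative to Alb was taken as reads per 10000 Alb reads in the 30 libraries with at least 1000 Alb reads. Onecut1 ran from 0 (WT ND ligature replicate 3) to 75.9 (WT 60% HFD ligature replicate 2), with a median of 12.6 and an upper quartile 4.40 times the lower. Hnf4a ran from 83.0 to 788 with a median of 214, and its upper quartile was 1.40 times the lower. For the other 7 factors that ratio of quartiles lay between 1.53 (Nr1i3) and 1.94 (Nr1h4), so Onecut1 varied most against Alb. The medians were 49.4 for Onecut2, 49.7 for Nr1i3, 43.4 for Nr1h4, 17.6 for Nr1i2, 14.3 for Foxa3, 4.44 for Foxa2 and 4.41 for Foxa1. WT ND ligature replicate 3 had the lowest ratio of Onecut1, Onecut2, Hnf4a, Foxa2, Foxa3, Nr1i2 and Nr1i3, and the highest of Nr1h4, 242, was in WT 40% HFD ligature replicate 2, which had 267 of Alb.

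By mouse, Onecut1 per 10000 Alb reads was 38 (95% Poisson interval 26.0 to 53.7), 35.7 (33.3 to 38.3) and 32.6 (30.3 to 35.0) in CCL19-KI ND, alike across a range of Alb from 397 to 13696. It was 69.4 (63.1 to 76.2), 41.1 (39.0 to 43.2) and 13.4 (12.0 to 15.0) in CCL19-KI 40% HFD, against 9.92, 4.11 and 14.9 in WT 40% HFD. The lowest of the 3 CCL19-KI mice fell within the WT range there. In WT 60% HFD it was 4.05, 4.34 and 11.9, and in the 2 CCL19-KI 60% HFD mice with enough Alb reads 20.5 (11.7 to 33.2) and 15.4 (9.27 to 24.0). The order of the genotypes by these values was the reverse of that of the levels, but each of these intervals holds the 11.9 of WT. With ligature it was 2.77, 3.46 and 0 in WT ND, and 1.95 in the 1 CCL19-KI ND mouse with enough Alb reads. It was 5.21, 9.47 and 4.40 in WT 40% HFD ligature and 13.3, 19.6 and 5.51 in CCL19-KI 40% HFD ligature. It was 23.6, 75.9 and 7.24 in WT 60% HFD ligature and 15.3, 16.5 and 5.57 in CCL19-KI 60% HFD ligature, where the groups overlapped.

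**Figure D3:**
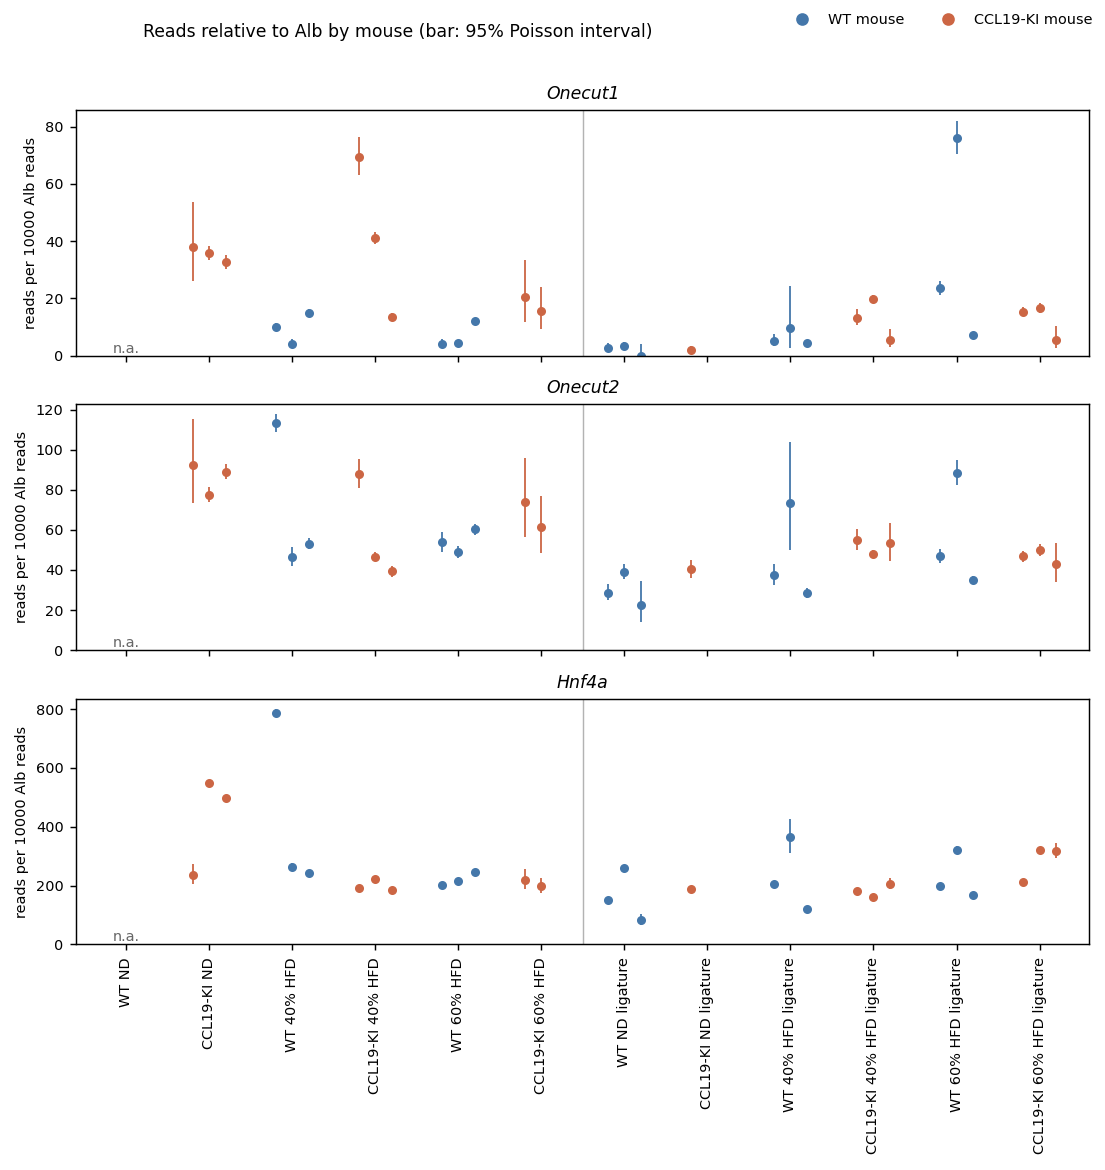
Reads of Onecut1, Onecut2 and Hnf4a per 10000 Alb reads in each mouse (points) with 95% Poisson intervals (bars), by group, in the 30 libraries with at least 1000 Alb reads; n.a. marks WT ND, which has none. Onecut1 spans 0 to 75.9, with the highest mouse in WT 60% HFD ligature, while most mice have 161 to 365 of Hnf4a.

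As a test of the ratio, limma was run on the log2 ratio of every gene to Alb. For CCL19-KI against WT on 40% HFD with ligature it called 0 of 9 factors and 0% of genes, and it also called 0 factors with no moderation of the variance across genes. Onecut1 had a log2 ratio change of 0.78 (SE 2.38, 95% interval -3.88 to 5.43). For any difference among the 12 groups it called 2 of 9 factors, Foxa1 (adjusted p = 0.00121) and Nr1h4 (adjusted p = 0.00450), against 98.1% of genes. Onecut1 had an adjusted p of 0.228 there. Every gene was divided by the same Alb value, which ran from 5.55 to 26901 normalized CPM. A gene that does not follow Alb is therefore called in this F test, so the 2 calls are not read as differences of Foxa1 or Nr1h4. The count of 2 was 4 without CCL19-KI ND ligature replicate 1 (17608 of 17815 genes), 5 with a ratio pseudocount of 1 (17627 of 17851) and 7 with no moderation of the variance, where 17768 of 17851 genes were called. Without the 6 libraries with under 1000 Alb reads it was 0, both with moderation (3 of 17096 genes called) and without it (11 called). In those fits Onecut1 had the lowest p of the 9 factors, 0.0200 (adjusted 0.476) with moderation and 0.00128 (adjusted 0.346) without it, both by limma and neither passing.

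The share of Onecut1 among the reads of Onecut1 and Onecut2 together, a measure added after the ratio to Alb was seen, does not involve Alb. In the 28 libraries with at least 50 such reads it ran from 4.62% to 46.8%, with a median of 19.7%. It was 29.1%, 31.5% and 26.8% in CCL19-KI ND. In CCL19-KI 40% HFD it was 44.1% (95% Clopper-Pearson interval 41.0 to 47.3), 46.8% (45.1 to 48.6) and 25.5% (23.0 to 28.0), and in WT 40% HFD 8.05% (7.09 to 9.10), 8.10% (5.61 to 11.2) and 21.8% (19.9 to 23.8). Each CCL19-KI mouse on 40% HFD lay above each WT mouse. In WT 60% HFD it was 6.97%, 8.13% and 16.5%. The 2 CCL19-KI 60% HFD mice that could be read had 21.6% (12.9 to 32.7) and 20.0% (12.5 to 29.5), intervals that hold the 16.5% of WT. With ligature on ND, the 1 CCL19-KI mouse that could be read had 4.62%, below the 8.80% and 8.11% of 2 WT mice. The groups overlapped on 40% HFD with ligature (12.2% and 13.4% in WT, 19.4%, 29.0% and 9.35% in CCL19-KI) and on 60% HFD (33.5%, 46.2% and 17.2% in WT, 24.6%, 24.9% and 11.5% in CCL19-KI). Some of these intervals are far narrower than the spread between mice of a group, and no test was run on the share.

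**Figure D4:**
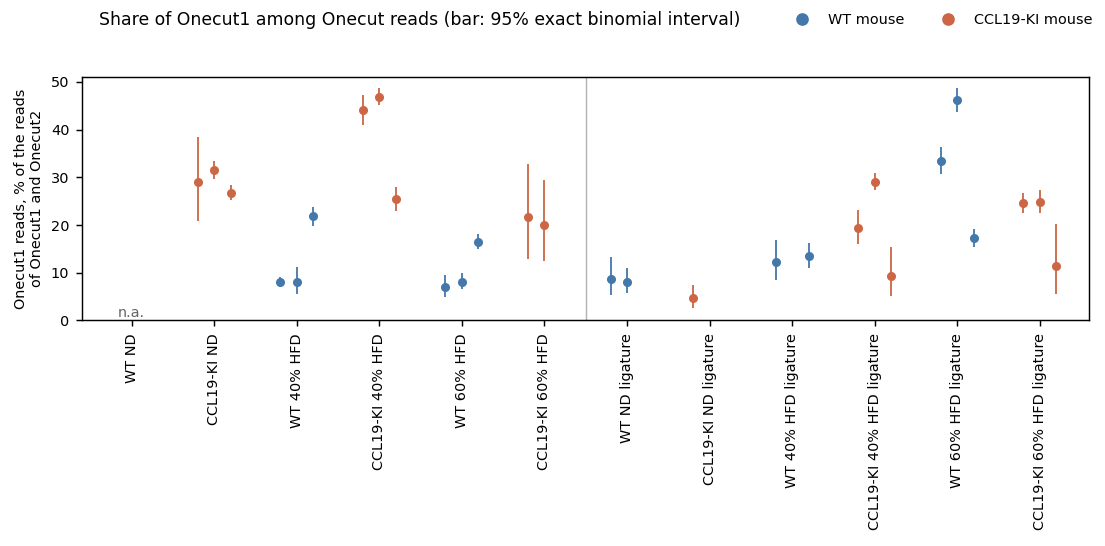
Reads of Onecut1 as a percentage of the reads of Onecut1 and Onecut2 in each mouse (points) with 95% exact binomial intervals (bars), by group, in the 28 libraries with at least 50 such reads; n.a. marks WT ND, which has none. The share runs from 4.62% to 46.8%, and without ligature each CCL19-KI mouse on 40% HFD lies above each WT mouse.

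The genes whose pattern over the 36 libraries was most like that of Onecut1, by Spearman's rho among 17851 other genes that passed the filter, were Foxa2 (0.933), Onecut2 (0.927), Keg1, Hhex, Gm2788 (each 0.910), F9 (0.909), Cpn2 (0.908), Asgr2 (0.907), Slc17a3 (0.907) and Cideb (0.906). Alb had 0.864 and ranked 325, and the part of the hepatocyte markers in these values was not tested. When group means were first subtracted, Foxa2 ranked 4 (Pearson's r 0.904), Onecut2 ranked 25 (0.879), Hnf4a ranked 366 (0.814) and Alb ranked 1304 (0.67). The gene closest to Onecut1 by that measure was Gm5524 (0.930), named after its value was seen. These correlations describe the libraries and carry no p.

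**Figure D5:**
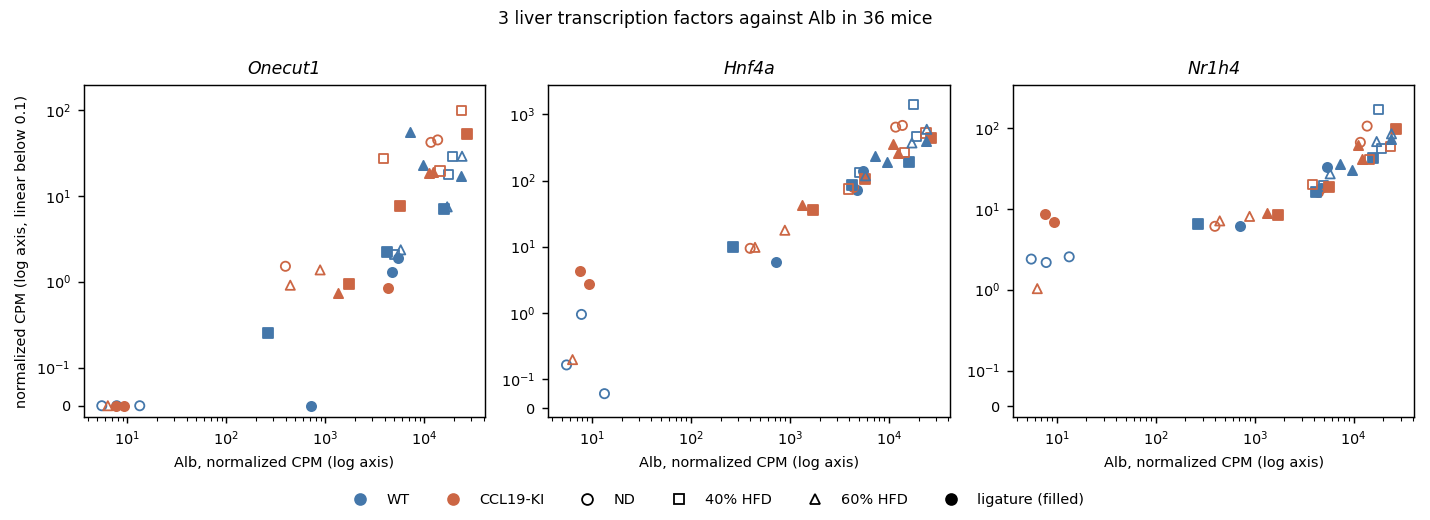
Normalized CPM of Onecut1, Hnf4a and Nr1h4 against Alb in 36 mice (both axes log, the vertical linear below 0.1); colour marks genotype, shape diet and filled symbols ligature. Onecut1 is at 0 in the 6 mice with the lowest Alb (5.55 to 13.4) and in 1 more, while Nr1h4 stays between 1.03 and 8.53 in those 6.

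Other transcription factors of the liver were read as a list of 14, of which 12 had a row in the table (not Hnf4g or Onecut3). On ND without ligature 4 of 12 were higher in CCL19-KI, Creb3l3 (4.75), Prox1 (4.08), Nr5a2 (3.76) and Nr0b2 (2.91), and on 60% HFD 5 were lower, Creb3l3 (-4.61), Nr5a2 (-4.16), Nr0b2 (-3.44), Cebpa (-1.80) and Nr1h3 (-1.35). These counts stood against 7.28% of all genes called on ND and 4.06% on 60% HFD. Cebpa, the most abundant of the list (55.0 to 451 normalized CPM), and Nr1h3, Rxra and Ppara are also expressed by fat. On 40% HFD without ligature, and in each diet with ligature, limma called 0 of 12, with 2 at an unadjusted p below 0.05 on ND with ligature and 0 in the other 3. By diet, 5 of 12 rose on 40% HFD, against 9.21% of all genes called, and 3 on 60% HFD, against 18.6%. By the F test 8 of 12 differed among groups, against 24.1% of all genes.

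Known target genes of each factor were read in the same contrasts, and several are hepatocyte markers too (3 of 6 for Hnf4a, 2 of 4 for Foxa, 1 of 3 for Onecut1). In these contrasts without ligature limma called 7.28% of all genes on ND and 4.06% on 60% HFD. Of the Hnf4a targets 4 of 6 rose in CCL19-KI on ND without ligature, among them Apob, the most abundant of the list (0.450 to 7963 normalized CPM, log2 fold change 9.79), and 5 of 6 fell on 60% HFD (Apob -6.15). Of the Foxa targets 3 of 4 rose on ND, Tat by 7.63, and 2 fell on 60% HFD, while Pck1, which fat also expresses, had 0.95 on ND (adjusted p = 0.414). Of the Onecut1 targets, 1 of 3 rose on ND, G6pc by 5.33, and 2 of 3 fell on 60% HFD, G6pc (-4.76) and Cyp7a1 (-4.33), and the third is Foxa2 itself. Of the Nr1h4 targets 3 of 4 in the table rose on ND and 3 fell on 60% HFD, with Abcb11, the bile salt pump, at 4.80 and -4.58. Of the Nr1i2 targets 1 of 2 rose on ND (Cyp3a11, 8.18) and 0 were called on 60% HFD by limma, with 1 at an unadjusted p below 0.05. Of the Nr1i3 targets 1 of 3 rose on ND and 1 fell on 60% HFD, Cyp2c29 in both (5.11 and -5.56), while Cyp2b10, its best known target, had -0.27 (adjusted p = 0.623) and 0.46 (adjusted p = 0.396).

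Several of these factors are also made in kidney, pancreas, intestine and bile ducts, so markers of those and other tissues were read. For the genotype, limma called 7.28% of all genes on ND and 4.06% on 60% HFD without ligature, and 2.22% on ND with ligature. For 60% HFD against ND it called 18.6%. Of 6 cholangiocyte markers 6 were detected in every library (sum 26.6 to 554, Krt19 most abundant) and 0 were called on ND or on 60% HFD without ligature (0 and 3 at an unadjusted p below 0.05 by limma). On ND with ligature 2 of the 6, Epcam and Sox9, were higher in CCL19-KI (adjusted p = 0.0195 and 0.0300 by limma), and 1 of 6, Spp1, which macrophages also express, was higher on 60% HFD than on ND. Kidney tubule markers summed to 25.4 to 496, with Lrp2 most abundant and Kap at 0 in 6 libraries, and 1 of 8 tested rose on ND and 4 fell on 60% HFD. Exocrine pancreas markers summed to 8.95 to 172, with Cela1 most abundant, and reached 172 and 122 in CCL19-KI ND replicates 2 and 3, where the Onecut factors were also high. In the groups with the highest mean Onecut1, CCL19-KI 40% HFD and WT 60% HFD ligature, these markers had mean sums of 28.2 and 33.8. Of 8 tested, limma called 0 on ND, with 7 at an unadjusted p below 0.05, and 0 on 60% HFD, with 0 at an unadjusted p below 0.05. Of 5 pancreatic islet markers none had a row in the table. Of 6 intestine markers 3 had a row, with sums of 1.05 to 147 and Fabp2, which liver also expresses, most abundant, and 2 of 3 rose on ND and 0 were called on 60% HFD (2 unadjusted). Their part in the results of the 9 factors was not tested.

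Epididymis markers (9 genes) had a median sum of 1.87 but 12724 in CCL19-KI 60% HFD replicate 3, 7389 in WT ND replicate 2 and 6520 in CCL19-KI 60% HFD replicate 2, and limma called 0 of 4 tested on ND and 0 of 4 on 60% HFD without ligature (0 and 2 unadjusted). Those 3 libraries had 0, 0 and 1.37 of Onecut1. Mesothelial markers summed to 138 to 1706 with Upk3b most abundant, and limma called 0 of 5 on ND and 0 of 5 on 60% HFD (1 and 0 unadjusted). Neuron markers summed to 0.506 to 143, with Syt1 most abundant, and 1 of 4 rose in CCL19-KI on ND with ligature, against 2.22% of all genes called. Of 6 prostate and seminal vesicle markers 2 had a row (sum 0 to 2.00, Spink1 most abundant), and of 4 lung markers 2 had a row (sum 0.0557 to 0.939, Sftpa1 most abundant), all near 0.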

How the data were processed

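Bulk RNA-seq of epididymal adipose tissue from 36 male mice was analysed, 3 in each of 12 groups. The signal values are normalized CPM made by the authors and deposited as 1 table of 24750 genes: per the submitters' notes, reads were trimmed with Trimmomatic 0.38, mapped to transcripts with Bowtie2 in RSEM 1.3.0 and normalized with edgeR. The notes name GRCm39 and the paper mm10, the annotation release is not stated, and the library kit is directional although use of the strand in counting is not stated. In all 36 libraries 100% of values were whole multiples of the smallest value above 0 (tolerance 0.01), which gave reads per library.

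Genes reaching 1 normalized CPM in 3 or more libraries of a fit were fitted with limma 3.58.1 (lmFit, eBayes with trend, R 4.3.3) on log2(value + 1), and called at an adjusted p (Benjamini-Hochberg) below 0.05. Genotype was compared within diet in fits of the 18 mice with and the 18 without ligature, and ligature, diet and any difference among groups in the fit of all 36. Ratios to Alb used a pseudocount of 0.1. Alternatives were a pseudocount of 0.1 or 5, other filters and normalizations, a replicate block, fewer or more mice in the fit, leaving out each mouse, and edgeR 4.0.16 (quasi-likelihood, TMM) on the recovered reads. The study's cutoffs for p and fold change were applied to limma, and, after seeing the data, to edgeR's quasi-likelihood test and its exact test of the 2 groups. Both tools were tested on simulated data. Descriptions used Python 3.11.15, numpy 2.4.6, scipy 1.17.1, pandas 2.3.3 and matplotlib 3.10.9.

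The members and lists were chosen with earlier results of these data known. Genes named are the 9 members, Alb, genes of the lists (other liver transcription factors, known targets, and markers of cell types), and the 10 genes most like Onecut1 by Spearman's rho. Of a list the most abundant and the called genes are given as examples, and other genes named were chosen after their values were seen.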

Additional observations from a re-analysis of the deposited data

Results flagged for a closer look

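The difference between CCL19-KI and WT without ligature depended on diet, by a limma test of ND minus 60% HFD that was added after the values were seen. On the log2 scale it was 12.54 for Hnf4a, 9.53 for Nr1i3, 9.38 for Onecut2, 7.73 for Nr1i2, 7.66 for Foxa3, 6.84 for Nr1h4, 6.6 for Onecut1 and 4.92 for Foxa2. The same test called 8.61% of all genes. Its count of called factors ran from 6 to 9 when each mouse of the comparison was left out in turn. Of 16 hepatocyte markers 15 were called for the same difference (median 13.74). On ND the difference between CCL19-KI and WT also depended on ligature (without minus with), by a test added in the same way. It was called for Hnf4a (8.79), Onecut2 (6.40), Nr1i3 (6.30) and Nr1i2 (5.55), against 7.59% of all genes. That count of factors was not stable, and ran from 0 to 8 when each mouse of the comparison was left out in turn. Here 15 of 16 hepatocyte markers (median 11.71) and 7 of 9 exocrine pancreas markers (median 3.44) were called too, and 3 of 4 neuron markers with negative sign (median -4.00). The part of these markers in either result was not tested. Both tests include the 3 WT ND mice, all with under 1000 Alb reads, and neither was made without them.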

How the results depend on the processing

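Over all alternatives, 389 values of counts of called factors stayed within 1.5 times the reported count and 55 did not. The 389 include comparisons where no factor was called in the reported fit or in the alternative, such as ligature against none. The tally therefore does not show how stable the counts were where factors were called, and those are given by comparison below. For single factors, in 5 of the comparisons and under the alternatives planned at first, 798 values kept their direction and side of the threshold, 31 passed it, 147 no longer did and 7 changed sign. Outside that tally, 7 factors changed sign on ND with ligature without the 6 libraries with under 1000 Alb reads, which leaves 1 CCL19-KI mouse there. Those with the largest change were Hnf4a (-1.83 to 0.99) and Nr1i3 (-1.74 to 0.98). Some counts are of fewer than 9 factors: the filter at a mean of 5 kept 7 with all 36 mice or with ligature. The cause was not tested for any result that changed, beyond the loss of mice where mice were left out.

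For CCL19-KI against WT on ND without ligature, the count of 7 was 1 with a pseudocount of 5, 3 with no filter, 0 of the 6 tested with only the 2 groups, and 0 to 9 leaving out 1 mouse. On 60% HFD without ligature, the count of 3 was 6 with a pseudocount of 0.1, 0 with a pseudocount of 5, 0 with no filter, 5 with quantile normalization, 5 by edgeR, 7 with only the 2 groups, 7 with all 36 mice, 8 by the study's cutoffs applied to limma, 8 with them applied to edgeR's quasi-likelihood test, 8 with them applied to edgeR's exact test of the 2 groups, 0 without the 6 libraries with under 1000 Alb reads, and 0 to 3 leaving out 1 mouse. With only the 2 groups, in limma or the exact test, the filter kept or left out factors by the group where they are high, so these counts are no support. For 40% HFD against ND the count of 7 was 3 with a pseudocount of 5, 0 without those 6 libraries and 4 to 9 leaving out 1 mouse. For 60% HFD against ND the count of 6 was 2, 0 and 2 to 7. For any difference among the 12 groups the count of 8 was 0 without those 6 libraries, and the F test has no ratio, so the study's cutoffs gave no value. For the ratio to Alb among the 12 groups the count of 2 was 5 with a ratio pseudocount of 1, 7 with no moderation of the variance, 0 without those 6 libraries with or without moderation, and 2 to 4 leaving out 1 mouse. For the genotype effect on ND without minus with ligature the count of 4 was 8 by edgeR and 0 to 8 leaving out 1 mouse. Leaving out those 6 libraries, leaving the variance unmoderated and applying the cutoffs to edgeR were chosen after seeing the data.

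On 40% HFD with ligature, leaving out 1 mouse changed the sign of factors that were not called. The log2 fold change ran from -0.14 to 1.95 for Hnf4a, from -0.13 to 1.07 for Foxa1, from -0.40 to 1.3 for Nr1h4 (-0.08 without WT 40% HFD ligature replicate 2), from -0.41 to 1.41 for Nr1i2 (-0.30 without CCL19-KI 40% HFD ligature replicate 2) and from -0.11 to 2.16 for Nr1i3.

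The replicate number as a block gave 5 called factors on ND and 2 on 60% HFD without ligature, 7 and 6 for the diets and 8 among groups. Of all genes, limma with that block called 1050 and 487 of 16923 in the first 2 of these fits. It called 1569 and 3304 of 17852 for the diets and 4132 among groups. The numbers do not pair samples: deviations from group means correlated at a median of -0.02 between libraries of the same number and 0.02 otherwise, and 16 of 36 libraries correlated best with their own number. Depth limits the low factors, since 3 reads equal 0.142 to 0.250 normalized CPM. Groups of 3 mice with a wide spread, and bulk tissue in which cell numbers were not measured, limit what the comparisons can show.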
